A study of Mus musculus with 12 samples.

Results

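A group of 10 genes commonly used to recognise tissue macrophages was followed in mouse prostate: Csf1r, Adgre1, Cd68, Mrc1, Cd163, C1qa, C1qb, C1qc, Trem2 and Mertk. They were chosen by name as macrophage genes, with no rule on their values but with earlier results of these data known, and they are 10 of the 39179 genes in the table. All 10 passed the filter on low values, as did 16197 genes in all. The prostates came from mice aged 4 months on a hybrid background of 129/SvImJ and C57Bl/6J, and all of them had been given the herbicide paraquat, which drives superoxide formation inside cells. There were 6 libraries from wild-type mice and 6 from mice homozygous null for the gene under study, so each comparison is between genotypes under paraquat. RNA was taken from whole tissue, in which epithelium, stroma and immune cells are mixed. In such tissue, fewer cells of a type and less RNA per cell cannot be told apart.

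Macrophages live in every tissue, where they take up dying cells, sense lipids and microbes and supply growth signals. Their survival depends on the receptor encoded by Csf1r, which binds 2 ligands made by surrounding cells. The other members mark parts of the same programme. Adgre1 encodes an adhesion-type surface receptor long used as the macrophage antigen of mice, and Cd68 a lysosomal glycoprotein. Mrc1 encodes the mannose receptor and Cd163 the receptor for haemoglobin bound to haptoglobin. The 3 C1q genes encode the chains of the recognition unit of the classical complement pathway, which tissue macrophages make in quantity. Trem2 encodes a lipid-sensing receptor that signals through the adaptor Tyrobp. Mertk encodes a receptor tyrosine kinase that binds dying cells through bridging ligands, and it is also made outside the macrophage lineage.

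Macrophage identity genes are classically driven by the transcription factors PU.1, encoded by Spi1, and MAF. Stretches upstream of the start sites of 5 members are shown because these genes behaved differently in the data: Mrc1 and Trem2 were higher in the null, the C1q chains split by set of libraries, and Mertk was lower. RefSeq promoter windows (GRCm38.p6, 250 bases before to 50 after the start) were matched for 7 of the 10 members, all but Csf1r, Adgre1 and C1qa. The letters searched were GAGGAA or its reverse complement TTCCTC for a PU.1 box and TGCTGA or its reverse complement TCAGCA for a MAF half-site, and no match of 1 overlaps a match of the other in the stretches shown. A PU.1 box was present in 5 of the 7 windows, namely those of Cd68, Mrc1, C1qb, C1qc and Trem2, against 28.3% of 32851 promoter windows of the same length. A MAF half-site was present in 1 of the 7, that of C1qb, against 19.5% of all windows. The windows of Cd163 and Mertk held neither set of letters. Such matches describe the letters and not a bound site. Each sequence below reads 5′ to 3′ on the strand of its gene, with matches in capitals: C1qb from chr4:136886201-136886450 (minus strand), C1qc from chr4:136893066-136893164 (minus strand), Mrc1 from chr2:14229164-14229391 (plus strand), Trem2 from chr17:48346151-48346400 (plus strand) and Mertk from chr2:128698665-128698914 (plus strand).
C1qb: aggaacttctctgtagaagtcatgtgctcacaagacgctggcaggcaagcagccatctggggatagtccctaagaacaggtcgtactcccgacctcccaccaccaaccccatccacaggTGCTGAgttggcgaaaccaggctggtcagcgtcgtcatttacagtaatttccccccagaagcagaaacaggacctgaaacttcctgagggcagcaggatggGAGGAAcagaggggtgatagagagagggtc
C1qc: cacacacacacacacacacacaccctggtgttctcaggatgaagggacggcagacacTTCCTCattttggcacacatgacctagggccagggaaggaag
Mrc1: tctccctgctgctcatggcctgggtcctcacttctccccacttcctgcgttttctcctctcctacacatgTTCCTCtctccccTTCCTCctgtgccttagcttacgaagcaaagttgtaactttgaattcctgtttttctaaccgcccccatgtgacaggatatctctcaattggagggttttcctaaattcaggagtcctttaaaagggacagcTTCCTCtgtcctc
Trem2: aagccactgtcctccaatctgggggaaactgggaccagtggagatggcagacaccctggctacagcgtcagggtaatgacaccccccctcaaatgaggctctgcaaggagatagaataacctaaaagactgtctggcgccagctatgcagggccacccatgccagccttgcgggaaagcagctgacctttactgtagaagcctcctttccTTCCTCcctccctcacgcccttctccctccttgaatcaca
Mertk: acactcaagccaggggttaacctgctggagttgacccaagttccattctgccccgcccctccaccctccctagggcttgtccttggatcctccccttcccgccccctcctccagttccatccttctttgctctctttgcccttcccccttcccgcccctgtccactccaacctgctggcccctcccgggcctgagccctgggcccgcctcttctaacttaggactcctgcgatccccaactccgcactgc
The C1qc stretch is cut to the part upstream of its GENCODE start, which lies before the RefSeq start, and its PU.1 box is 193 bases before the latter. The Mrc1 stretch holds 3 PU.1 boxes, at 180, 167 and 35 bases before the RefSeq start. The Trem2 stretch holds 1, at 40 bases before its start. That of C1qb holds a PU.1 box at 30 bases and a MAF half-site at 131 bases before the start. The Mertk stretch is rich in C and T and holds neither motif.

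Values are the deposited log2 normalised values, and each difference is null minus wild type on that scale. The recovered depth was 14.8 to 21.7 M reads per library. The libraries of each genotype fell into 2 sets of like profiles (1 to 3 and 4 to 6), found by clustering without the macrophage genes. Median absolute differences between libraries were 0.0776 to 0.141 within a set and 0.273 to 0.352 between the sets of 1 genotype. The labels do not say that each library is a different animal, and p-values at library level may then measure technical spread alone. Every comparison was therefore made at library level (12 libraries, n = 6 per genotype) and again at set level (the 4 set means, n = 2 per genotype), both with limma. At library level 65.9% of the 16197 genes tested passed an adjusted p of 0.05, 34.1% higher and 31.8% lower in the null. Scaled to library totals, that split was 8611 higher and 2608 lower, and with the 50 most abundant genes left out of the totals it was 6804 and 4034, against 5518 and 5152. At set level 4.09% passed. The words rose and fell are used of single genes that passed both. With either wild-type set left out, limma called few genes at set level (217 without libraries 1 to 3, 6 without libraries 4 to 6). Of the 10 genes below that rose or fell, C1s2 was called in both cases, Cd52 without libraries 1 to 3, and the other 8 in neither case.

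Of the 10 macrophage genes, 5 were called higher and 1 lower in the null at library level. The share called in either direction was near the 65.9% of all genes tested, of which 34.1% were called higher and 31.8% lower. At set level none of the 10 was called by limma, while 5 had an unadjusted p under 0.05, as did 5041 of the 16197 genes tested. The wild-type and null libraries did not overlap for 5 of the 10, against 44.2% of all genes tested. The difference had 1 sign in all 4 pairings of a null with a wild-type set for 6 of the 10, or 60.0%, against 67.2% of all genes. The median difference of the 10 was 0.41, and that of all genes tested was 0.05. The members thus did not move as 1 block: Mrc1, Trem2, Adgre1, Csf1r and Cd163 were higher in the null sets, Mertk was lower, and Cd68 and the C1q chains differed in sign between the null sets.

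**Figure D1:**
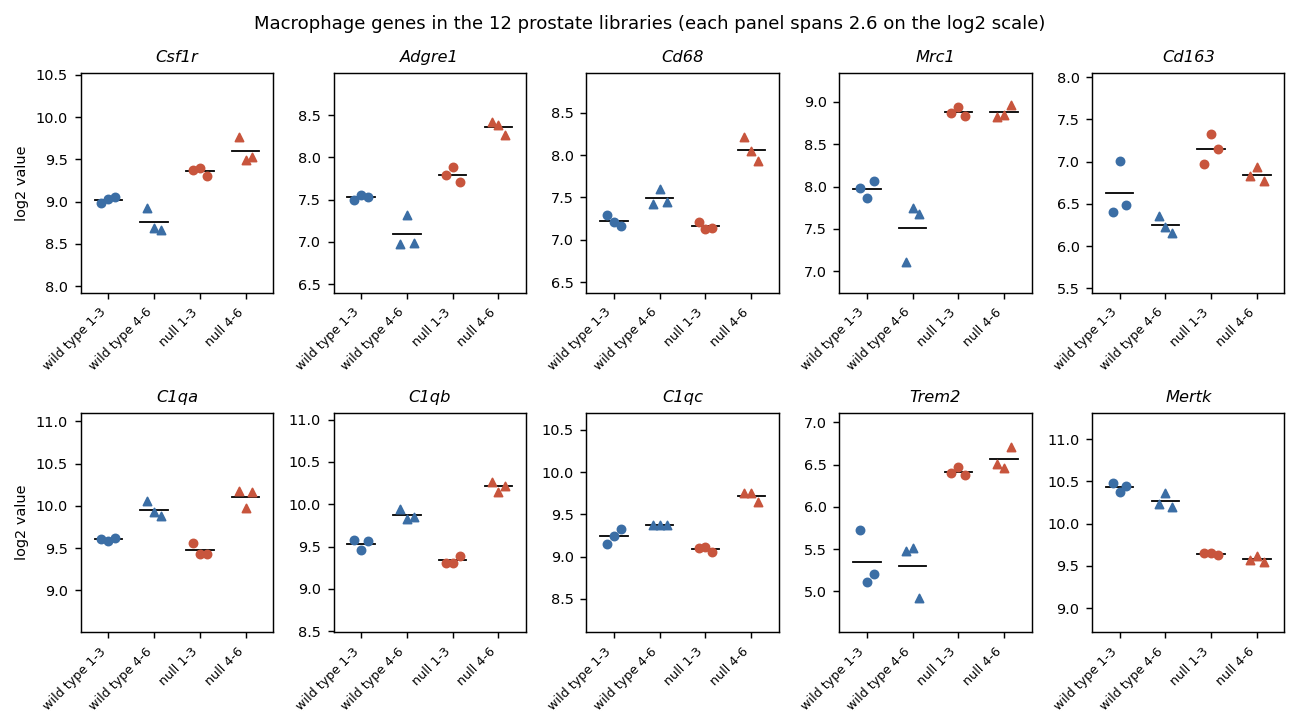
Log2 value of each macrophage gene in every library, with wild type in blue and null in red, circles for libraries 1 to 3, triangles for libraries 4 to 6 and a line at each set mean. Mrc1 and Trem2 sit higher in all 6 null libraries and Mertk lower, while Cd68 and the C1q chains are highest in null libraries 4 to 6 and lowest, or near lowest, in null libraries 1 to 3.

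**Figure D2:**
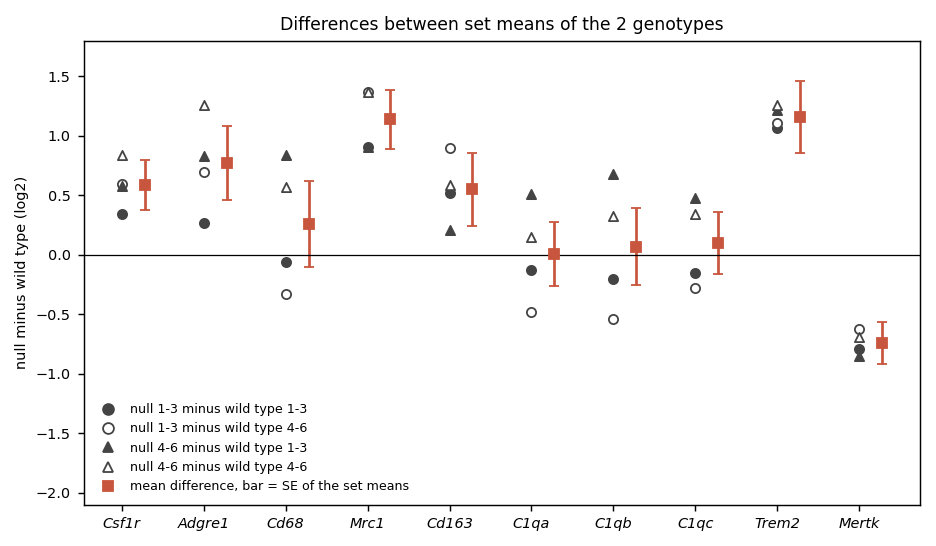
Null minus wild type (log2) for each macrophage gene: circles and triangles give the 4 pairings of set means, and red squares give the mean difference with its standard error of the set means. The 4 pairings of Mrc1 run from 0.91 to 1.37 and those of Mertk from -0.85 to -0.62, whereas those of C1qb run from -0.54 to 0.68.

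Csf1r encodes the receptor on which macrophage survival depends. Its values in wild-type libraries 1 to 6 were 8.98, 9.03, 9.05, 8.92, 8.69 and 8.67, and in null libraries 1 to 6 they were 9.38, 9.40, 9.31, 9.77, 9.49 and 9.53. All 6 null libraries lay above all 6 wild-type libraries. The means were 8.89 ± 0.17 and 9.48 ± 0.16 (SD, n = 6), a difference of 0.59 that was called at library level (adjusted p = 0.000154, limma) and not at set level (SE 0.21, adjusted p = 0.130). The gene overlaps Hmgxb3 on the opposite strand and a microRNA gene, and with no strand setting in the sources used here their reads cannot be told apart.

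Of the Csf1r ligands and the transcription factors of the lineage, 14 of 15 genes were tested, 6 were called higher and 4 lower at library level, and 1 was called lower at set level. That 1 was Tfec, a transcription factor of the MiT family found in macrophages, which fell by 2.80 on the log2 scale, from 6.53 ± 0.18 to 3.73 ± 0.47 (SD, n = 6) (SE 0.32, adjusted p = 0.0124 at set level, limma). Its null values ran from 2.89 to 4.21, mostly under the filter value of 4, so Tfec passed the filter through its wild-type libraries. Genes averaging under 2.5 had a median value of 1.98, and with null values so near that level the size of its fall is uncertain. The ligand genes Csf1 and Il34 were named after their values were seen. Csf1 was 8.18 ± 0.22 in wild type and 8.77 ± 0.15 in the null (n = 6, SD), called at library level and not at set level (adjusted p = 0.149, limma). Il34 was 5.78 ± 0.30 and 6.18 ± 0.30 (SD, n = 6), with overlapping libraries and no call in either fit. Spi1, which encodes PU.1, was 6.66 ± 0.27 and 6.81 ± 0.30 (SD, n = 6), also without a call in either fit. Spi1 was likewise named after its values were seen.

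Adgre1, the gene of that surface antigen, lies on GRCm38 chromosome 17 from 57358691 to 57483527. In wild-type libraries it was 7.50, 7.55, 7.53, 6.97, 7.32 and 6.99, and in null libraries 7.79, 7.89, 7.71, 8.42, 8.38 and 8.27. The groups did not overlap, but the nearest libraries, wild-type library 2 and null library 3, were close. The difference was 0.77 (adjusted p = 0.00101 at library level, limma), with an SE of 0.31 and an adjusted p of 0.157 at set level. Within the wild type, libraries 1 to 3 were higher by 0.44, and within the null, libraries 4 to 6 were higher by 0.56. The difference between pairs of set means accordingly ran from 0.27 to 1.26.

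Cd68, whose product sits in the lysosomes of macrophages and of some other cells, lies on chromosome 11 from 69664213 to 69666153. It was 7.29, 7.21, 7.16, 7.42, 7.60 and 7.45 in wild-type libraries and 7.21, 7.13, 7.14, 8.21, 8.05 and 7.93 in null libraries. Null libraries 4 to 6 stood above every other library, and null libraries 1 to 3 fell among or under the lowest wild-type libraries. The mean difference of 0.26 was not called at library level (adjusted p = 0.269) or at set level (adjusted p = 0.643, limma). Without null libraries 1 to 3 the difference was 0.71 and was called among the remaining libraries (adjusted p = 0.000673, limma). Without null libraries 4 to 6 it was -0.20 and was not called (adjusted p = 0.143, limma). Both fits took the 3 libraries of 1 null set as replicates, so these p-values may measure technical spread alone. With a trend on transcript length removed the difference was 0.60 and was called at library level (adjusted p = 0.00434, limma).

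Mrc1, the mannose receptor gene, was higher in every null library than in any wild-type library. It lies on chromosome 2 from 14229392 to 14332057 and contains the microRNA gene Mir511 on the same strand. Its wild-type values were 7.98, 7.86, 8.06, 7.11, 7.74 and 7.67, and its null values were 8.87, 8.94, 8.83, 8.82, 8.84 and 8.97. The null libraries were close to each other (SD 0.06) and the wild-type libraries were not (SD 0.34). The difference of 1.14 was called at library level (adjusted p = 1.16e-05) and not at set level (SE 0.25, adjusted p = 0.0608, limma). It was called at set level with values scaled to library totals, at 1.45 (adjusted p = 0.0262), and without null libraries 4 to 6, at 1.14 (adjusted p = 0.0379). Within each library, Mrc1 minus Csf1r was -1.15 on average in wild type and -0.60 in the null, so Mrc1 was higher by 0.55 beyond the difference of Csf1r.

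Cd163, the haemoglobin scavenger receptor gene, lies on chromosome 6 from 124304656 to 124330527 and was the lowest of the 10 per length of transcript. Its values were 6.40, 7.01, 6.49, 6.36, 6.23 and 6.16 in wild type and 6.97, 7.33, 7.15, 6.83, 6.94 and 6.77 in the null. Wild-type library 2 reached into the null range, and the other 5 lay under all null libraries. The difference of 0.55 was called at library level (adjusted p = 0.00593) and not at set level (adjusted p = 0.260, limma). The call over the libraries was lost with the set as a random block (adjusted p = 0.312), with quantile normalisation, where the difference was 0.25, without null libraries 1 to 3, where it was 0.40, and without wild-type libraries 4 to 6, where it was 0.36 (adjusted p = 0.0975, limma). Relative to Csf1r in the same library Cd163 differed by only -0.04 between the genotypes, where Mrc1 differed by 0.55.

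Among 17 tested genes of 20 for other resident-cell and scavenger receptors, 9 were called higher and 0 lower at library level, and 1 rose at set level as well. Marco, Vsig4 and Clec4n were under the filter on low values. The 1 that passed both was Cd36, which encodes a receptor for fatty acids and oxidised lipoproteins and is also strongly expressed in fat and endothelium. Cd36 rose from 7.58 ± 0.33 to 9.05 ± 0.08 (SD, n = 6), a difference of 1.48 (SE 0.26, adjusted p = 0.0357 at set level, limma). Most adipocyte markers were higher in the null as well: 7 of 8 were called higher and 1 lower at library level, and 4 higher at set level. Their summed level was 9.79 to 10.63 in wild type and 10.74 to 11.23 in the null. Within the wild type they did not follow Cd36. From libraries 1 to 3 to libraries 4 to 6, Cd36 went from 7.82 to 7.33 and the adipocyte sum from 9.84 to 10.53. Of the endothelial markers 7 of 9 were called higher and 1, Emcn, lower (-1.47) at library level, and 0 at set level. The part of fat and endothelium in the Cd36 result was not tested.

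The C1q genes lie side by side on the minus strand of chromosome 4, C1qb from 136880129 to 136886187, C1qc from 136889804 to 136893065 and C1qa from 136895917 to 136898803. C1qa was 9.61, 9.58, 9.62, 10.06, 9.93 and 9.88 in wild-type libraries and 9.56, 9.43, 9.43, 10.18, 9.98 and 10.17 in null libraries. C1qb was 9.58, 9.46, 9.56, 9.94, 9.83 and 9.85 in wild type and 9.31, 9.31, 9.39, 10.26, 10.15 and 10.22 in the null. C1qc was 9.15, 9.25, 9.33, 9.38, 9.37 and 9.37 in wild type and 9.10, 9.11, 9.06, 9.75, 9.75 and 9.65 in the null. For all 3 chains null libraries 1 to 3 were lower than every wild-type library, and null libraries 4 to 6 were above all wild-type libraries for C1qb and C1qc. The mean differences of 0.01 (C1qa), 0.07 (C1qb) and 0.10 (C1qc) were not called, with adjusted p of 0.953, 0.757 and 0.539 at library level and 0.981, 0.891 and 0.812 at set level (limma).

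The near-equal means covered 2 unlike null sets. Null libraries 4 to 6 exceeded null libraries 1 to 3 by 0.64 for C1qa, 0.87 for C1qb and 0.63 for C1qc, beyond the 90th percentile of 0.55 for that difference over all genes tested. The matching wild-type differences were 0.35, 0.34 and 0.13. With null libraries 4 to 6 left out, all 3 chains were called lower over the remaining libraries, at -0.31, -0.37 and -0.22 (adjusted p = 0.0320, 0.0122 and 0.0160, limma). With null libraries 1 to 3 left out, all 3 were called higher, at 0.33, 0.51 and 0.41 (adjusted p = 0.0339, 0.00320 and 0.000796, limma). The sign of a C1q difference between the genotypes therefore rested on which null set was used. These calls took the 3 libraries of 1 null set as replicates, so their p-values may measure technical spread alone. With a trend on transcript length removed from each library, the 3 differences were 0.39, 0.44 and 0.45 and were called higher at library level (adjusted p = 0.00313, 0.0120 and 0.00147, limma), and none was called at set level. Seminal vesicle markers also separated the null sets, but not all in the same direction. Their summed level was 21.41 in libraries 1 to 3 and 16.84 in libraries 4 to 6. Svs3a (11.78 and 13.65), Svs3b (11.38 and 11.65) and Svs4 (14.58 and 16.43) were higher in libraries 4 to 6, and the other listed genes were lower. Markers of other immune cells were higher in sum in null libraries 4 to 6, as the C1q chains were. Their sums in libraries 1 to 3 and 4 to 6 were 14.81 and 15.52 for genes shared by leukocytes. They were 9.86 and 10.47 for T and NK cells, and 11.21 and 11.98 for B cells. Mast cell markers went the other way, at 9.75 and 8.86. In the wild-type sets the same sums were 13.09 and 13.04 for genes shared by leukocytes, and 9.50 and 10.11 for T and NK cells. They were 10.37 and 11.32 for B cells and 8.69 and 8.51 for mast cells. The sums for T and NK cells and for B cells were thus higher in libraries 4 to 6 of both genotypes. The part of these cells in the result was not tested.

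The chains kept close to each other from library to library. C1qa minus C1qb was 0.04 to 0.11 in wild type and -0.17 to 0.24 in the null. Across the 12 libraries the Pearson correlation was 0.97 for C1qa with C1qb, 0.95 for C1qb with C1qc and 0.89 for C1qa with C1qc, given as a description since libraries of a set share their profile. With Csf1r the correlations were 0.14 for C1qa, 0.24 for C1qb and 0.38 for C1qc. Relative to Csf1r in the same library the chains were lower in the null by 0.58, 0.52 and 0.49.

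The proteases C1r and C1s join C1q to form the first complement complex, and they are made by many cell types. Of 16 early complement genes tested, 7 were called higher and 4 lower at library level, and 2 fell at set level as well. These 2 were C1s2, which fell by 5.07 from 15.32 ± 0.18 to 10.25 ± 0.22, and C1rb, which fell by 3.92 from 15.52 ± 0.20 to 11.60 ± 0.99 (SD, n = 6, adjusted p = 0.00247 and 0.0244 at set level, limma). C1s2 and C1rb are close copies of C1s1 and C1ra, so the split of reads between copies is uncertain. Whether the copies are made by the same cells as C1s1 and C1ra was not tested. C1ra was 9.15 ± 0.15 and 8.62 ± 0.14, and C1s1 was 9.30 ± 0.11 and 9.36 ± 0.09 (SD, n = 6), neither called at set level. C1ra and C1s1 were named after their values were seen.

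Trem2, on chromosome 17 from 48346401 to 48354147, was near the low end of the members and clearly separated between the genotypes. Its values were 5.73, 5.11, 5.20, 5.48, 5.51 and 4.92 in wild type and 6.40, 6.47, 6.38, 6.51, 6.46 and 6.71 in the null. All 6 null libraries lay above all 6 wild-type libraries, and the null sets differed by only 0.14. The difference was 1.16 (adjusted p = 1.68e-05 at library level, limma), with an SE of 0.30 and an adjusted p of 0.0817 at set level. With the set as a random block the adjusted p was 0.0728, and with values scaled to library totals the difference was 1.48 and was called at set level (adjusted p = 0.0354). Such a scale understates the change of low genes.

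Tyrobp, the adaptor through which Trem2 signals, did not follow it closely. It was 7.49 ± 0.15 in wild type and 7.92 ± 0.34 in the null (n = 6, SD), with overlapping libraries, and was called at library level and not at set level (adjusted p = 0.349, limma). Trem2 minus Tyrobp in the same library averaged -2.16 in wild type and -1.43 in the null. Of the 21 genes listed for Trem2 signalling and lipid handling, 12 were called higher and 2 lower at library level, and 1 rose at set level as well. That 1 was Abca1, the cholesterol efflux transporter, which rose from 9.18 ± 0.19 to 10.47 ± 0.04 (SD, n = 6), a difference of 1.28 (SE 0.20, adjusted p = 0.0265 at set level, limma). The call at set level was lost once a trend on transcript length was removed, where the difference was 0.68.

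Several genes associated with lipid-laden macrophages followed the split of the null sets, and they were named after their values were seen. Which cells of the tissue made them was not tested. Spp1, which encodes osteopontin, averaged 5.09 and 3.86 in the wild-type sets, 6.77 in null libraries 1 to 3 and 9.74 in null libraries 4 to 6. Gpnmb, a transmembrane glycoprotein of lysosome-rich cells, averaged 8.00 and 7.89 in wild type and 8.16 and 9.68 in the null. Mmp12, the macrophage elastase, averaged 4.85 and 4.71 in wild type and 5.27 and 8.11 in the null. Lgals3, which encodes galectin-3, averaged 7.81 and 8.24 in wild type and 8.79 and 9.80 in the null. All 4 were called higher at library level and none at set level, where the adjusted p was 0.0772, 0.214, 0.182 and 0.0963 (limma). They were picked for this split, which is therefore a description. All 3 null libraries 4 to 6 lay above libraries 1 to 3 for 14 of the 21 genes of the Trem2 and lipid list. The same held for 5 of the 11 tested of alternative activation, against 35.7% of all genes tested. All genes of these lists took part in the clustering that found the sets. The split was not particular to them. It was seen in 21 of 25 other general macrophage genes, which were left out of the clustering, with 2 the other way. Trem2 itself differed little between the null sets. Apoe did not follow that split, at 13.09 in null libraries 1 to 3 and 12.92 in null libraries 4 to 6, against 12.15 and 12.63 in wild type. Apoe and Tyrobp were also named after their values were seen.

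**Figure D3:**
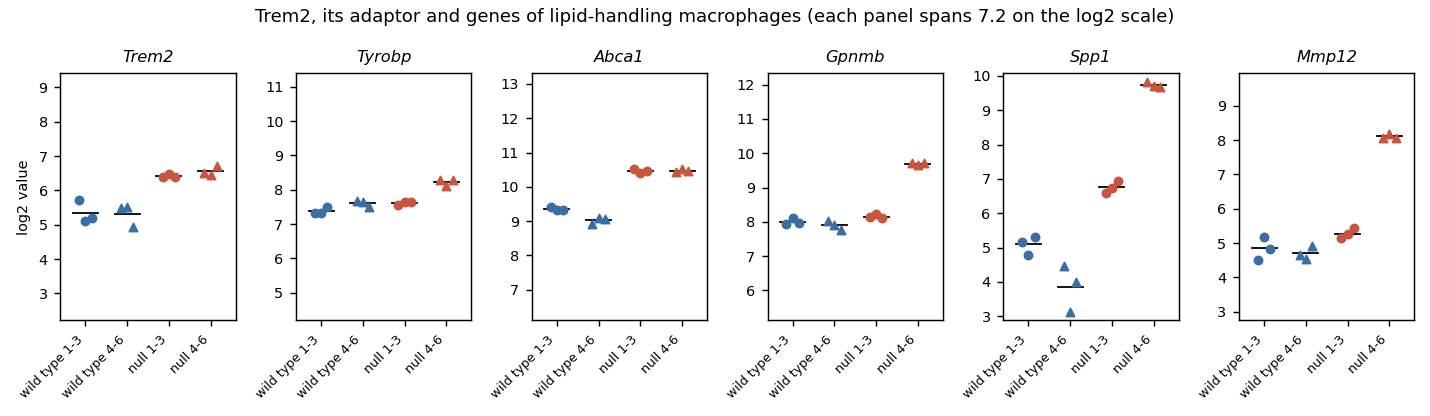
Log2 values of Trem2, Tyrobp, Abca1, Gpnmb, Spp1 and Mmp12 in every library, with wild type in blue, null in red, circles for libraries 1 to 3, triangles for libraries 4 to 6 and lines at the set means. Trem2 and Abca1 are at like levels in both null sets (6.42 and 6.56 for Trem2), while Spp1 averages 6.77 and 9.74 in them.

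Mertk ran opposite to the other called members. It lies on chromosome 2 from 128698956 to 128802894 and overlaps the antisense gene Gm14011 and the small nucleolar RNA gene Gm23172, whose reads cannot be told apart from its own without strand. Wild-type values were 10.48, 10.37, 10.44, 10.23, 10.36 and 10.20, and null values were 9.65, 9.65, 9.63, 9.57, 9.62 and 9.55. Every null library was under every wild-type library, with little spread in either group (SD 0.11 and 0.04). The difference of -0.74 had the lowest adjusted p of the 10 at library level (3.52e-07) and was not called at set level (SE 0.18, adjusted p = 0.0753, limma). Once a trend on transcript length was removed it was -0.90 and was called at set level (adjusted p = 0.0326), and with values scaled to library totals it was -0.42. It stayed called at library level under each of the 28 alternatives. Per length of transcript Mertk was the highest of the 10 after the C1q chains.

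The related receptors were higher in the null, where Mertk was lower. Axl was 10.02 ± 0.28 in wild type and 10.78 ± 0.09 in the null, and Tyro3 was 9.22 ± 0.08 and 10.22 ± 0.20 (SD, n = 6). Their differences of 0.75 and 1.0 were called at library level without overlap, and not at set level (adjusted p = 0.10 and 0.0539, limma). Mertk minus Axl in the same library went from 0.09 to 0.51 in wild type and from -1.32 to -0.99 in the null, and Mertk minus Tyro3 from 0.88 to 1.38 and from -0.76 to -0.35. Mertk was thus above both relatives in every wild-type library and under both in every null library, and its group means per length of transcript were ordered likewise. Axl and Tyro3 were named after their values were seen.

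The 2 ligands that bridge these receptors to dying cells changed in opposite directions. Gas6, which binds all 3 receptors, fell from 13.10 ± 0.14 to 11.91 ± 0.10, by 1.19 on the log2 scale (SD, n = 6, SE 0.23, adjusted p = 0.0455 at set level, limma). Pros1, which encodes protein S, rose from 7.95 ± 0.16 to 9.54 ± 0.27, a difference of 1.59 (SD, n = 6, SE 0.25, adjusted p = 0.0259 at set level, limma). Gas6 was under the threshold by little and its call at set level was lost with other scalings, at -1.12 with upper-quartile centring, -0.88 with library totals, -1.05 with totals that leave out the 50 most abundant genes and -0.92 with quantile normalisation. Its call was lost as well without wild-type library 6, at -1.17, without null library 5, at -1.19, and without null libraries 1 to 3, at -1.11. Per length, Gas6 was still the higher of the 2 ligands in the null, at 10.56 against 7.82, after 11.75 against 6.23 in wild type. Of 16 genes for the uptake of dying cells, 13 were called higher and 1 lower at library level, with 1 in each direction at set level.

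**Figure D4:**
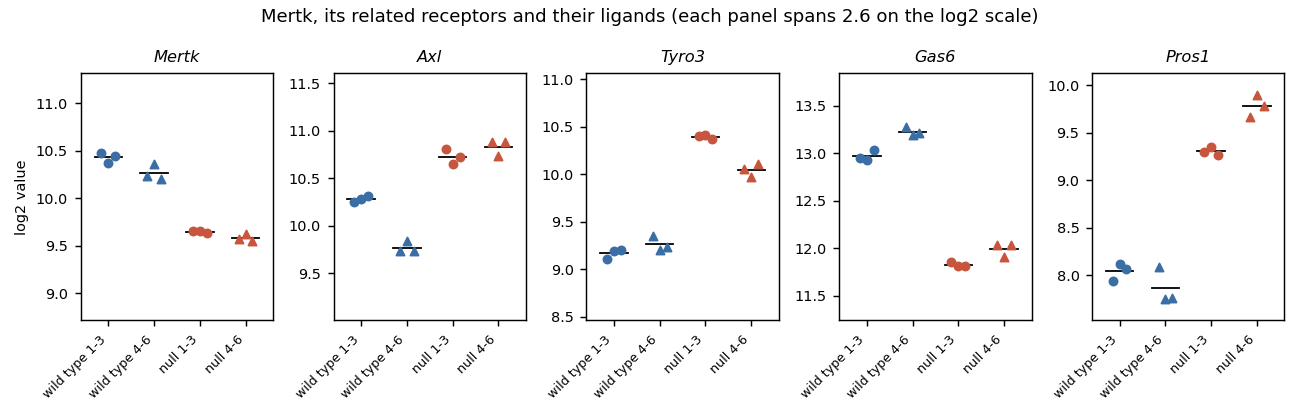
Log2 values of Mertk, its related receptors Axl and Tyro3 and the ligand genes Gas6 and Pros1 in every library, with wild type in blue, null in red, circles for libraries 1 to 3, triangles for libraries 4 to 6 and lines at the set means. Mertk and Gas6 are lower in all 6 null libraries, and Axl, Tyro3 and Pros1 are higher.

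To compare levels between genes, values were divided by the length of the principal transcript, which puts them on a log2 scale per kilobase. In wild type the order was C1qa (9.72), C1qb (9.58), C1qc (9.04), Mertk (8.24), Cd68 (7.06), Csf1r (6.66), Adgre1 (5.61), Mrc1 (5.31), Trem2 (5.20) and Cd163 (4.30). C1qa and C1qb differed by less than their SD of 0.20 and 0.19, and so did Mrc1 and Trem2, whose SD were 0.34 and 0.30. Adgre1 was above Mrc1 by less than the SD of Mrc1 and by slightly more than its own of 0.27. In the null the C1q chains again led (9.73, 9.65 and 9.14), followed by Mertk (7.51), Cd68 (7.31), Csf1r (7.25), Mrc1 (6.45), Adgre1 (6.38), Trem2 (6.37) and Cd163 (4.86). Mertk, Cd68 and Csf1r, apart in wild type, were within the SD of 0.50 of Cd68 in the null.

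The summed level of the 10 genes, on the linear scale and then as log2, was 12.19 to 12.28 in wild-type and 12.09 to 12.59 in null libraries. It was 12.11 in null libraries 1 to 3 and 12.54 in null libraries 4 to 6, with the C1q chains and Mertk as the most abundant genes in it. Another 25 general macrophage genes had no call in the lower direction: 15 were called higher at library level and 2 rose at set level as well. Their summed level was 12.61 to 12.68 in wild type and 13.07 to 13.59 in the null. Sirpa, the inhibitory receptor for CD47, rose from 9.08 ± 0.25 to 10.43 ± 0.10 (SD, n = 6), a difference of 1.34 (SE 0.22, adjusted p = 0.0328 at set level, limma). Lgmn, which encodes the lysosomal protease legumain, rose from 9.13 ± 0.07 to 10.19 ± 0.16 (SD, n = 6), a difference of 1.06 (SE 0.19, adjusted p = 0.0408 at set level, limma), and its call there was lost with median centring, at 0.98. Cx3cr1, the fractalkine receptor gene, was 6.26 to 6.83 in wild type and 7.49 to 7.97 in the null, and Itgam, an integrin gene of myeloid cells, was 6.32 to 7.32 and 7.73 to 8.30. The latter pair, named after their values were seen, were called at library level and not at set level (adjusted p = 0.0669 and 0.0898, limma).

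Markers of other cells differed between the genotypes as well. Over all genes tested, 34.1% were called higher and 31.8% lower at library level. Of 12 genes shared by leukocytes 7 were called higher and 0 lower at library level, with a summed level of 12.98 to 13.13 in wild type and 14.78 to 15.55 in the null. In the null most of that sum was Cd52, a surface glycoprotein of lymphocytes and of the male genital tract, which rose from 11.02 ± 0.92 to 14.85 ± 0.43 (SD, n = 6, adjusted p = 0.0244 at set level, limma). Ptprc, which encodes CD45, was 7.24 to 8.01 in wild type and 8.61 to 9.12 in the null, called at library level and not at set level (adjusted p = 0.0735, limma). Monocyte markers had 4 of 8 tested called higher at library level, with sums of 13.83 to 14.19 and 14.06 to 14.89. Most of each of these sums was Ace, at 13.80 and 13.40 in the wild-type sets and 13.72 and 14.62 in the null sets. Only 4 of 13 neutrophil markers passed the filter, and the defining pair S100a8 and S100a9 did not. Among those 4, 3 were called higher and 1 lower at library level, and 1 in each direction at set level. Of the 9 luminal epithelial markers 4 were called lower and 3 higher at library level. Their sum was 18.49 to 19.07 in wild type, most of it Pbsn (probasin, 18.43 ± 0.28, SD, n = 6), and 16.02 to 16.32 in the null. Basal markers were higher in sum (12.28 to 12.43 against 12.85 to 13.08), while seminal vesicle markers went from 5.87 to 7.85 in wild type up to 16.83 to 21.42 in the null. Fibroblast markers had 7 of 8 called higher at library level, and smooth muscle markers 4 of 8 called lower and 1 higher. At set level 0 genes of the monocyte, fibroblast and smooth muscle lists were called. The part of these cells in the macrophage results was not tested.

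**Figure D5:**
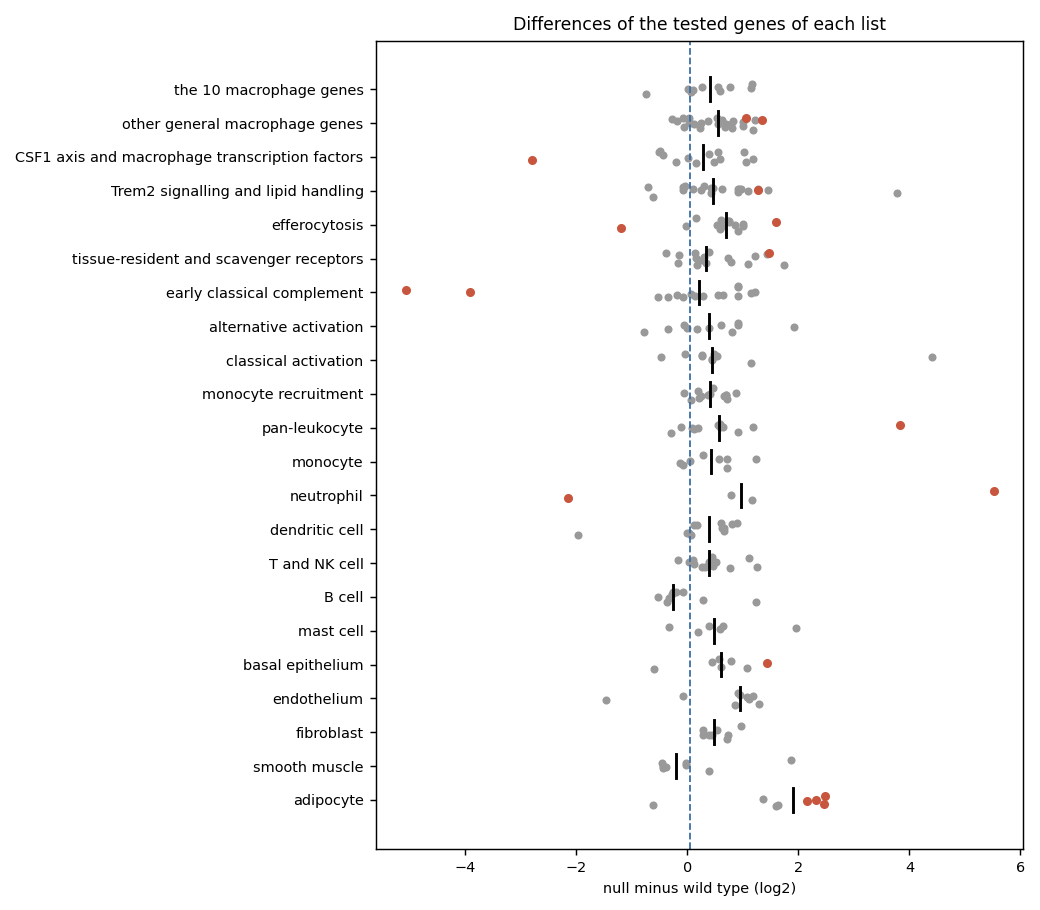
Null minus wild type (log2) for the tested genes of each list, with a bar at the list's median, a dashed line at the median of all genes tested (0.05) and in red the genes called at set level. The 10 macrophage genes have a median of 0.41, and the luminal and seminal vesicle lists, which hold values outside the axis, are not drawn.

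Members differed in how well they followed the rest of the group. The correlation across the 12 libraries with the mean of the other 9 was 0.94 for Adgre1, 0.88 for Csf1r, 0.75 for Trem2, 0.67 for Cd68 and 0.66 for Mrc1. It was 0.59 for C1qc, 0.43 for C1qb, 0.38 for Cd163, 0.34 for C1qa and -0.86 for Mertk. Outside all lists, the genes most like the mean of the 10 were Serpina3n (Pearson correlation 0.987 across the 12 libraries), Upk1b (0.986), Gng12 (0.985), Zbtb8b (0.984), Slc19a2 (0.984), Lamp1 (0.983), Tspan3 (0.983) and H2-K1 (0.981). With the genotype means removed these correlations were 0.946 to 0.972. They are descriptions, since the 12 libraries fall into 4 sets and many genes follow the sets.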

How the data were processed

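Poly-A RNA of mouse prostate was sequenced in 12 libraries on a HiSeq2000 after TruSeq preparation, per the labels' protocols. CASAVA 1.8.2, TopHat, Cufflinks and DESeq are named with the builds mm9 and GRCm38.p2, per the submitters' processing notes, which give them no role or order. Read layout, strand setting and the handling of reads with several matches are, in the sources used here, not given; near-identical copies and overlapping genes are therefore uncertain. The deposited table holds log2 values normalised by the authors. The lowest value was -0.28, and the values of genes averaging under 2.5 had a median of 1.98. High values, taken to the power of 2, were spaced by whole multiples of 1 read (within 0.1) once an offset fitted for each library was taken off. The offsets ran from -0.322 to 0.465 of a read. This spacing gave depths of 14.8 to 21.7 M reads. Only 19.2% to 21.7% of lower values came out whole, so no count test was run and counting error is unknown for most genes. Differences of low genes are understated on this scale.

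The filter kept genes that reached 4 in 6 libraries (16197). They were tested by limma 3.58.1 under R 4.3.3 (two-sided, with trend, Benjamini-Hochberg over all genes tested, threshold 0.05), on the values as deposited. A second fit used the means of the 4 sets of libraries as replicates; sets came from clustering within genotype on 16162 genes without the macrophage genes. The fits were checked on simulated data. Replicate numbers follow accession order and pair nothing. Standard errors are from the fit at set level. Symbols, positions and transcript lengths come from GENCODE vM21 (GRCm38), which matched 37607 IDs (96.0%), and promoters from RefSeq (GRCm38.p6). Python 3.11.15 was used for the rest.

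The members and lists were chosen with earlier results of these data known. Named genes are the 10 members, up to 3 genes per list called at set level (or the 2 lowest by p, given as values), the first 2 markers of a cell type set beside a member, and the 8 genes most like the members. Some genes picked by that rule, mainly in the lists of other cell types, are not named in the text. The 15 genes described outside that rule are said to be, and a few others are named only as parts of a sum or as under the filter. Alternatives were other scalings, filters, thresholds, variance models, the set as a random block, removal of a trend on transcript length and leaving out each library or set. The gene under study and a few other items are not reported here.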

Additional observations from a re-analysis of the deposited data

How the results depend on the processing

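The 28 alternatives kept the direction of Csf1r, Adgre1, Mrc1, Cd163, Trem2 and Mertk. Of the members, 6 were called at library level; with the trend on transcript length removed, 10 were, with library totals 8, with quantile normalisation 5 and with the set as a random block (within-set correlation 0.824) 4, without Trem2 and Cd163. It was 5 without wild-type libraries 4 to 6 and 9 without either null set. At set level 0 were called; 2 were with library totals, 1 with the length trend removed, and 0 to 1 when a library or set was left out. The median difference of 0.41 became 0.72 with library totals and 0.20 with quantile normalisation, and ran from 0.14 to 0.61 when a library or set was left out. With median centring C1qa was -0.07, C1qb -0.01 and C1s1 -0.02, and with quantile normalisation Spi1 was -0.18. When a library or set was left out, C1qa ran from -0.31 to 0.33, C1qb from -0.37 to 0.51, C1qc from -0.22 to 0.41, Cd68 from -0.20 to 0.71, Spi1 from -0.05 to 0.35, C1s1 from -0.02 to 0.14 and the B-cell gene Ms4a1 from -0.95 to 0.23, reversing only without wild-type libraries 4 to 6. The cause of these changes was not tested.

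Counts over all genes depended on the setting. At library level 5518 were called higher and 5152 lower; with the set as a random block it was 2285 and 2767. At set level 349 were called higher and 313 lower. That became 1654 and 287 with library totals, 215 and 185 without the variance trend, and 45 and 45 at an adjusted p of 0.01. Leaving out 1 set gave 153 and 64 (without wild-type libraries 1 to 3), 4 and 2 (wild-type libraries 4 to 6), 556 and 427 (null libraries 1 to 3) or 1783 and 1416 (null libraries 4 to 6), and the lone set is then assumed to vary like those of the other genotype. Without wild-type libraries 1 to 3 or 4 to 6, Sirpa, Lgmn, Abca1, Cd36, Pros1, Gas6 and Tfec were not called at set level, and without the variance trend the first 6 of these were not either. Gas6 was also not called there without null libraries 1 to 3, at -1.11. No paired analysis was possible because the replicate numbers are accession order alone.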

Other observations

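Of 11 tested genes of alternative activation, 4 were called higher and 1 lower at library level, and limma called 0 at set level. Over all genes tested, 34.1% were called higher and 31.8% lower at library level. Tgfb1, a cytokine gene, was 7.42 to 7.79 in wild type and 8.22 to 8.49 in the null, and Cd200r1, an inhibitory receptor gene, was 3.43 to 4.11 and 4.50 to 5.22. Of 10 tested genes of classical activation, 4 were called higher at library level and 0 at set level, and Nos2, Il6 and Il12b were under the filter on low values. Ptgs2, the inducible cyclooxygenase gene, averaged 12.37 in null libraries 1 to 3 and 5.06 in null libraries 4 to 6, so it separated the null sets in the direction opposite to the C1q chains. Cd38, an ectoenzyme gene of activated leukocytes, was 5.63 to 6.49 in wild type and 6.90 to 7.52 in the null.

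Among genes for the recruitment of monocytes, 5 of 13 tested were called higher and 0 lower at library level, against 34.1% and 31.8% of all genes tested. The higher genes included the chemokine gene Cxcl12 (9.75 to 9.97 in wild type, 10.23 to 10.83 in the null). Dendritic cell markers had 5 of 12 called higher and 1 lower; the latter was Batf3, a transcription factor gene, at 6.65 to 7.72 in wild type and 4.69 to 5.63 in the null. T and NK cell markers had 3 of 13 called higher, B cell markers 1 of 9, and mast cell markers 4 of 6 higher with 1 lower. At set level limma called 0 genes of each of these lists. Batf3 had an adjusted p of 0.0562 there.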
